A study of Mus musculus with 116 samples.

Results

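The CDK inhibitors of the INK4 and CIP/KIP families were followed in neocortical cells that had or had lost Eed, a core subunit of Polycomb repressive complex 2 (PRC2). The members were listed by name, by their gene family: Cdkn2a, Cdkn2b, Cdkn2c and Cdkn2d of the INK4 family and Cdkn1a and Cdkn1b of the CIP/KIP family, with the imprinted Cdkn1c left out. They are 6 of the 53379 genes counted. Of 116 libraries, the 92 with at least 1000000 uniquely aligned reads that made up at least 60% of all reads were used, 55 from green, 20 from yellow and 17 from red cells.

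Mosaic analysis with double markers (MADM) labels single cells in green, red or yellow while it sets their genotype, here with cassettes on chromosome 7 and Emx1-Cre, which is active in cortical progenitors and so leaves cells of other origin in the tissue with their Eed. All groups carry the cassettes and Cre. In control-MADM (wt in the labels) cells of all colors are Eed+/+, and in cKO-Eed-MADM (cKO) cells of all colors are Eed-/- in a tissue whose Emx1 lineage has lost Eed. In Eed-MADM (het) the color tells the genotype, Eed-/- in green, Eed+/- in yellow and Eed+/+ in red, and labelled cells are sparse in a heterozygous tissue. Each library came from the sorted cells of 2 or 3 pooled cortices, which the labels describe as strain CD1, collected at E12.5, E13.5, E16.5 or P0 (E12, E13, E16 and P0 in the labels). Cells of E12.5 were collected in another buffer than the others, so that this age and the way of collection cannot be told apart. Green cells gave 4 libraries of cKO-Eed-MADM at each age, while control-MADM gave 5, 2, 3 and 5 in order of age and Eed-MADM gave 8, 2, 5 and 9. Libraries held 865832 to 7249098 reads on genes.

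INK4 proteins bind CDK4 and CDK6 and keep them from pairing with D-type cyclins, and CIP/KIP proteins bind complexes of cyclins with CDKs, above all those of CDK2. Both restrain the passage from G1 to S phase through the retinoblastoma protein. The locus that holds Cdkn2a and Cdkn2b is a classic target of Polycomb repression in many tissues, and its products accumulate in senescent cells, while Cdkn1a is a main transcriptional target of p53 and p27, the product of Cdkn1b, rises as neural progenitors leave the cell cycle.

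Before any comparison, the libraries were checked against their labels. In green cells, Eed was at 29.4 ± 3.24 CPM (counts per 1000000 reads on genes after TMM scaling, mean ± SD, n = 5) in control-MADM at P0, at 15.4 ± 3.10 CPM (n = 9) in Eed-MADM and at 11.8 ± 3.57 CPM (n = 4) in cKO-Eed-MADM, and the means of both mutant groups lay below those of the controls at every age. Counts per gene take in any transcript that lacks the deleted part of Eed. The paper also left out green libraries with many reads in that part, which it took as inefficient recombination, or with low correlation to their replicates. That was not done here, so such libraries may remain. Radial glia and projection neuron markers were present at every age. Compared by the median correlation of a library with the others of its age, 3 libraries stood apart: cKO-Eed-MADM red replicate 1 at P0 (0.684), control-MADM yellow replicate 2 at P0 (0.741) and Eed-MADM green replicate 9 at E12.5 (0.733), against medians of 0.919 at P0 and 0.849 at E12.5. No libraries held identical counts. The paper counts each pool of cortices as a biological sample. The labels do not say whether the libraries of a group came from separate pools, so that p-values measure the spread between these samples, which may be technical.

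Cdkn2a and Cdkn2b are neighbours on chromosome 4 (GRCm38, minus strand), at 89274471 to 89294653 and 89306299 to 89311039, 11645 bases apart. Cdkn2a has 2 transcripts in GENCODE M21 whose starts lie 12461 bases apart. The one with the upstream start encodes ARF, which holds back the p53 antagonist MDM2, and the one with the downstream start encodes the CDK inhibitor p16INK4a. The counts are per gene and do not tell the 2 apart. Cdkn2c lies on the same chromosome at 109660876 to 109667189, 20.4 megabases away. Cdkn1a is on chromosome 17 (29090976 to 29100727, plus strand), Cdkn1b on chromosome 6 (134920401 to 134925513, plus strand) and Cdkn2d on chromosome 9 (21288410 to 21291407, minus strand). Cdkn1a overlaps an antisense gene, AC167363.2, which is not among the genes used here, and the unstranded counts cannot separate the 2.

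The bases before the starts of Cdkn2a and Cdkn2b are shown because these 2 genes had the lowest levels in controls and were called together in the mutants described below. They come from RefSeq (GRCm38.p6), are written 5′ to 3′ on the minus strand with every CpG in capitals, and stop before the first exon.
Cdkn2a, upstream start (chr4:89294654-89294869): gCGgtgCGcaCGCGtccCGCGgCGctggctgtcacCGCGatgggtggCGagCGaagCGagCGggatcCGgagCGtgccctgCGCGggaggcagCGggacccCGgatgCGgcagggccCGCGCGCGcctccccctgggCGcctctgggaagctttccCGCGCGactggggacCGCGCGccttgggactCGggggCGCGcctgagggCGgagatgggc
Cdkn2a, downstream start (chr4:89282193-89282442): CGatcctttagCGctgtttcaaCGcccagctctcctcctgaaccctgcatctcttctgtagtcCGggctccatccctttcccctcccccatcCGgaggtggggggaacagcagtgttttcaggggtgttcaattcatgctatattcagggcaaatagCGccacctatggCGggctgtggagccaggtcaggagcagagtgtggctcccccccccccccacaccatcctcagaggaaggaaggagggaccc
Cdkn2b (chr4:89311040-89311282): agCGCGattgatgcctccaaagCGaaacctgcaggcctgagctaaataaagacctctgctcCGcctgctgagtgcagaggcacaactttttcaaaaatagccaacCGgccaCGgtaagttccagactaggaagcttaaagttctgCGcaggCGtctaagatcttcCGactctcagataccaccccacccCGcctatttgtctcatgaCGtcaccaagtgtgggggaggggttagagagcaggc
In the 250 bases before each start, the ratio of observed to expected CpG was 1.08 for the upstream start of Cdkn2a, with 40 CpG, 0.316 for the downstream start, with 7, and 0.670 for Cdkn2b, with 12. Of the 32851 promoters of the table, 97.2%, 44.4% and 71.0% had a ratio at or below these, and the median of all was 0.373. Cdkn1b had the same ratio as the upstream start of Cdkn2a, 1.08, with 28 CpG. The members thus did not share one class of promoter: the 9 starts in the table ran from 0.110 to 1.08.

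Cdkn1a has 2 starts in the table. The bases before the upstream one (chr17:29090729-29090975, plus strand) are shown because they hold 2 matches to the p53 half-site, in capitals.
Cdkn1a, upstream start: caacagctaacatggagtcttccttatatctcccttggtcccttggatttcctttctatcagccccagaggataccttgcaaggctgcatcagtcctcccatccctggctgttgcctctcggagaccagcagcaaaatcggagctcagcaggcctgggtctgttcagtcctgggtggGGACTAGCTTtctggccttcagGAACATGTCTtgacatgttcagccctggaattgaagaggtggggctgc
A half-site, 10 letters that read as the same pattern on both strands, was found in 7.13% of all promoters over the same 250 bases, and also before the start of Cdkn2d. The GC box GGGCGG, on either strand, was found before the downstream start of Cdkn1a, the upstream start of Cdkn2a, 1 start of Cdkn2c, and the starts of Cdkn1b and Cdkn2d, and in 32.7% of all promoters. These matches are letters in a window and were not measured as binding sites.

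In green control cells Cdkn2a and Cdkn2b had the lowest levels of the members at every age. Per kilobase of exon, Cdkn2d, Cdkn1b, Cdkn2c and Cdkn1a were at 50.2 ± 10.3, 22.3 ± 4.62, 10.2 ± 4.43 and 7.02 ± 3.63 CPM per kb in control green cells at P0 (mean ± SD, n = 5), Cdkn2b was at 0.877 ± 0.520, and Cdkn2a had no read. In that order Cdkn2c and Cdkn1a did not differ by more than their spread. No green control library at any age held a Cdkn2a read. The 3 counts that 0 allows came to 0.382, 0.266, 0.202 and 0.105 CPM over the group in order of age.

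Cdkn2a rose in green Eed-/- cells of cKO-Eed-MADM. At E12.5 it had 1 read in all 4 cKO-Eed-MADM libraries together and 1 read in all 8 of Eed-MADM. At E13.5 the 4 cKO-Eed-MADM libraries held 30, 64, 52 and 31 reads (6.66, 13.3, 9.48 and 7.15 CPM), while both control-MADM and both Eed-MADM libraries were at 0. The groups did not overlap, and the mean of 9.14 ± 3.01 CPM was at least 34.4-fold higher than control-MADM, taken at the floor of 3 counts over the group. The test across all genes nevertheless did not call it (edgeR quasi-likelihood test with Benjamini-Hochberg adjustment, adjusted p = 0.0743 against control-MADM and 0.279 against Eed-MADM). Both passed with DESeq2 (adjusted p = 0.000699 and 0.00396) and without the filter on low counts (0.00365 and 0.0190).

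At E16.5 Cdkn2a was at 10.1, 15.9, 19.0 and 31.9 CPM in cKO-Eed-MADM and at 0 in all 3 control-MADM libraries, a difference of at least 95.4-fold (adjusted p = 0.00259). In Eed-MADM replicates 1 and 2 held 5 and 15 reads (1.11 and 3.58 CPM) and the other 3 held none. The cKO-Eed-MADM libraries all lay above them, with a log2 fold change of 4.44 ± 0.97 (SE, adjusted p = 0.00740), which was 6.14 without Eed-MADM replicate 2.

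At P0 Cdkn2a had reads in all 9 green Eed-MADM libraries, at 0.585 CPM at the lowest, 2.54 CPM in the median and 5.45 CPM at the highest, and none in the 5 control-MADM libraries. Eed-MADM was at least 26.4-fold higher than control-MADM (adjusted p = 0.000171). Cdkn2a was tested there only because the cKO-Eed-MADM libraries share the fit. With only the 2 groups compared it was below the count limit of the test. The cKO-Eed-MADM libraries were at 38.5, 17.3, 25.7 and 46.3 CPM, at least 304-fold higher than control-MADM (adjusted p = 3.82e-08) and 11.1-fold higher than Eed-MADM (log2 fold change 3.47 ± 0.42, adjusted p = 5.70e-06). The 3 genotypes did not overlap, so that cells labelled Eed-/- in a heterozygous tissue lay between those of the control and those of the cKO tissue.

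Cdkn2b, the INK4 inhibitor p15 that TGF-beta signaling induces in many cell types, rose in cKO-Eed-MADM at E16.5 and P0 too, but differed from Cdkn2a in the controls and Eed-MADM of P0. At E13.5 it was below the limit of the test across genes. It stood at 3.99, 5.39, 4.92 and 0.461 CPM in cKO-Eed-MADM, at 0 and 0.570 CPM in Eed-MADM and at 0 in both control-MADM libraries. The difference from control-MADM had an exact 2-sided permutation p = 0.133, adjusted p = 0.884 over 9 such tests, in a design whose smallest p is 0.0667. One cKO-Eed-MADM library, replicate 5, was below the higher Eed-MADM library. At E12.5 the means of Cdkn2b were 0.255, 0.104 and 0.470 CPM in cKO-Eed-MADM, Eed-MADM and control-MADM, and the lowest exact permutation p of the 6 tests on Cdkn2a and Cdkn2b was 0.417.

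At E16.5 Cdkn2b was at 24.5, 15.5, 19.0 and 20.7 CPM in cKO-Eed-MADM and at 0 in control-MADM, at least 98.9-fold higher (adjusted p = 0.000651). Eed-MADM libraries held 0.442, 0, 3.13, 1.38 and 0 CPM, all below the cKO-Eed-MADM libraries (log2 fold change 4.25 ± 0.81, adjusted p = 0.00246), and the value was 5.37 without Eed-MADM replicate 3. The 2 Eed-MADM libraries with the most reads of Cdkn2b, replicates 3 and 4, held no Cdkn2a read, and replicate 2, with the most Cdkn2a, held no Cdkn2b read.

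At P0 Cdkn2b had reads in 4 of 5 control-MADM libraries (1.49, 1.61, 1.17, 0 and 1.83 CPM). Eed-MADM ran from 0.680 through a median of 3.47 to 5.07 CPM and overlapped the controls (log2 fold change 1.41 ± 0.45, adjusted p = 0.112). DESeq2 did call this difference (adjusted p = 0.0259). The cKO-Eed-MADM libraries, at 36.1, 47.9, 43.1 and 42.9 CPM, lay far above both, 33.7-fold above control-MADM (log2 fold change 5.07 ± 0.52, adjusted p = 1.31e-07) and 12.7-fold above Eed-MADM (3.67 ± 0.39, adjusted p = 3.00e-07).

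**Figure D1:**
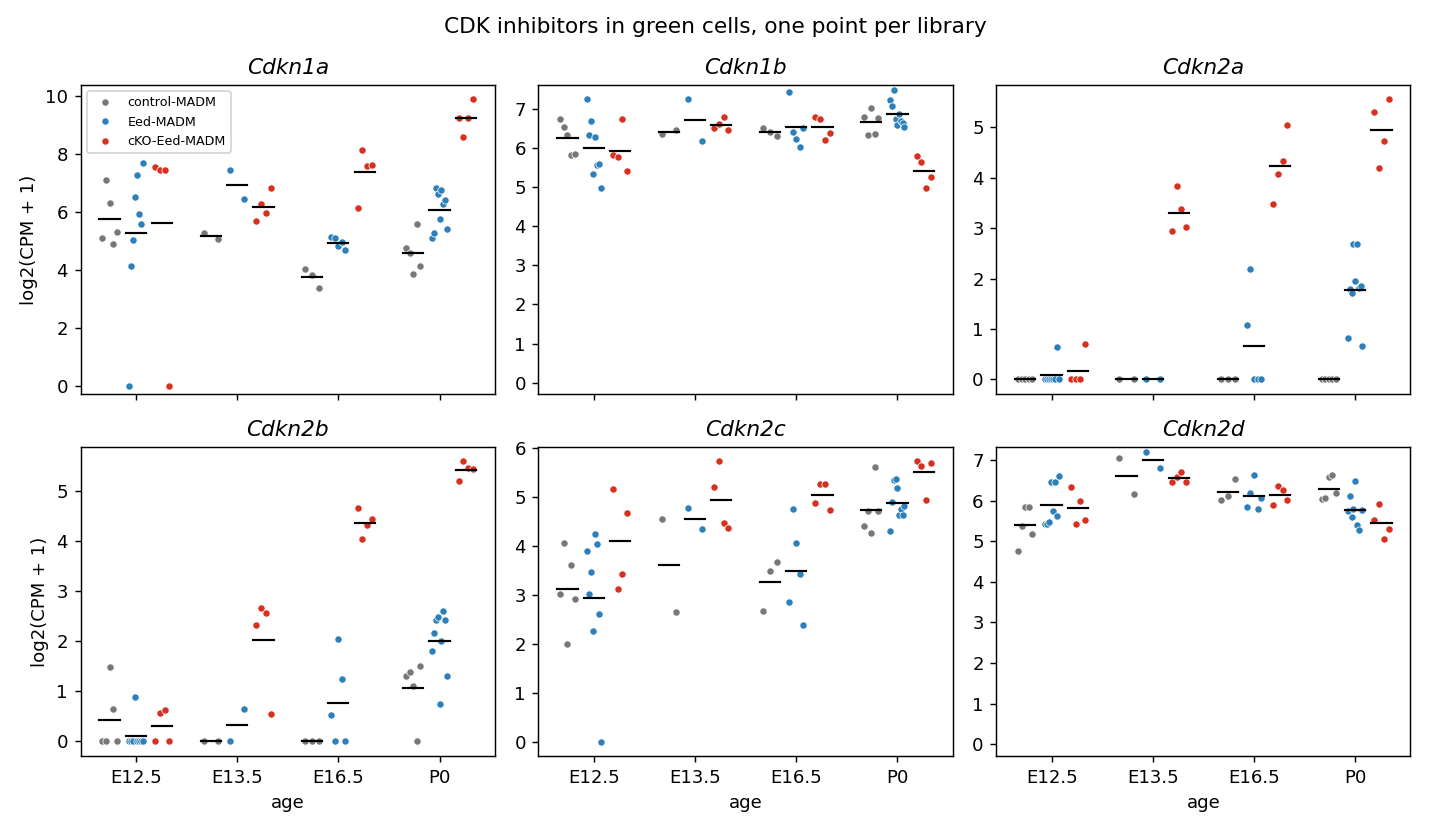
Level of each member in green cells by age and genotype, as log2(CPM + 1) on the vertical axis, with 1 point for each library and a line at the mean of the group. Cdkn2a and Cdkn2b leave the baseline in cKO-Eed-MADM from E13.5 on, Cdkn1a stands highest in cKO-Eed-MADM at P0 (380 to 937 CPM), and Cdkn1b is lowest there (30.7 to 55.0 CPM).

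Of the other 38 annotated genes within 500 kb of Cdkn2a, 36 are in the files, and 34 of these had under 30 reads over all 92 libraries. The exceptions were Mtap, a methionine salvage enzyme gene on the far side of Cdkn2a from Cdkn2b, and Dmrta1, a transcription factor gene. At P0 Mtap was at 17.5 to 41.9 CPM in control-MADM (mean 28.7, n = 5) and 46.4 ± 17.4 CPM in cKO-Eed-MADM (n = 4, log2 fold change 0.67, adjusted p = 0.0843). Dmrta1 differed most at E13.5, with 48.0 CPM in control-MADM (n = 2) and 14.7 ± 6.12 CPM in cKO-Eed-MADM (n = 4, log2 fold change -1.74, adjusted p = 0.141). Neither gene was called against control-MADM in either mutant at any age.

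Cdkn2c, the INK4 inhibitor p18 of cycling neural progenitors, differed less. At E16.5 it was at 28.2, 37.3, 37.0 and 25.4 CPM in cKO-Eed-MADM and at 5.31, 10.2 and 11.6 CPM in control-MADM, with no overlap and a 3.62-fold difference (log2 fold change 1.86 ± 0.51, adjusted p = 0.0286). That call was lost when any of 5 libraries was left out, with adjusted p = 0.0660 and 0.0670 without cKO-Eed-MADM replicates 2 and 3 and 0.142, 0.0796 and 0.0627 without control-MADM replicates 1, 2 and 3. Against Eed-MADM, where replicate 2 reached 25.8 CPM, the difference was 1.40 ± 0.42 (adjusted p = 0.0520), and it was 1.83 without that library (adjusted p = 0.00878). At P0 the means were 45.2 ± 10.4, 29.2 ± 7.52 and 27.3 ± 11.9 CPM in cKO-Eed-MADM, Eed-MADM and control-MADM, and the difference between the first and the last missed the threshold (0.71 ± 0.28, adjusted p = 0.0628). It passed without cKO-Eed-MADM replicate 3 (29.7 CPM, adjusted p = 0.0353) or without control-MADM replicate 5 (47.8 CPM, adjusted p = 0.00369), and also with DESeq2 (0.0408), with the counts of one strand (0.0498) and after thinning (0.0200).

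Cdkn2d, the INK4 inhibitor p19 that postmitotic neurons keep expressing, fell by 0.87 ± 0.23 on the log2 scale in cKO-Eed-MADM at P0 (adjusted p = 0.00780). The 4 libraries were at 44.8, 59.9, 32.3 and 38.4 CPM, all below the 5 control-MADM libraries at 64.6, 65.5, 95.4, 97.5 and 72.4 CPM. Eed-MADM lay between, at a mean of 55.2 ± 15.1 CPM (n = 9), and was called against neither group (adjusted p = 0.149 against control-MADM and 0.264 for cKO-Eed-MADM against it). At E16.5 its means in control-MADM and cKO-Eed-MADM were 74.5 ± 14.6 and 69.7 ± 10.6 CPM (adjusted p = 0.907).

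Cdkn1a, which encodes p21, had the highest level per length of all members in green cKO-Eed-MADM cells at P0, with a mean of 177 CPM per kb against 9.43 to 30.6 CPM per kb for the other 5. Its green libraries were at 605, 380, 598 and 937 CPM there, at 13.3 to 46.2 CPM in control-MADM (median 22.6, n = 5) and at 33.5 to 113 CPM in Eed-MADM (median 75.9, n = 9). The cKO-Eed-MADM libraries overlapped neither of the others and were 24.9-fold above control-MADM (log2 fold change 4.64 ± 0.42, adjusted p = 1.28e-07) and 8.71-fold above Eed-MADM (3.12 ± 0.32, adjusted p = 8.91e-07). Eed-MADM was above control-MADM by 1.51 ± 0.34 (adjusted p = 0.0297), a 2.86-fold difference with overlap between the groups. That call was lost with the replicate number as a block (adjusted p = 0.0755) and without control-MADM replicate 2, 4 or 6 (0.0569, 0.0715 and 0.0819).

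At E16.5 Cdkn1a was at 68.7, 277, 188 and 194 CPM in cKO-Eed-MADM, at 15.2, 12.97 and 9.42 CPM in control-MADM and at 33.8, 32.7, 27.1, 30.1 and 24.8 CPM in Eed-MADM. The 3 genotypes did not overlap. The differences were 3.88 ± 0.37 between cKO-Eed-MADM and control-MADM (adjusted p = 2.53e-06), 2.64 ± 0.28 between cKO-Eed-MADM and Eed-MADM (adjusted p = 4.75e-06) and 1.24 ± 0.33 between Eed-MADM and control-MADM (adjusted p = 0.136), the last being past the threshold with DESeq2 (adjusted p = 0.0121). At E13.5 the order was another one: control-MADM was at 37.2 and 32.1 CPM, cKO-Eed-MADM at 49.7, 75.6, 60.9 and 113 CPM and Eed-MADM at 171 and 85.4 CPM, and no difference was called. The one between Eed-MADM and control-MADM (log2 fold change 1.88) passed with DESeq2 (adjusted p = 0.0266) and without the filter on low counts (0.0107). Without Eed-MADM replicate 2 it was 1.28. At E12.5 Cdkn1a ran from 0 to 183 CPM in the 4 cKO-Eed-MADM libraries, from 0 to 202 CPM in the 8 of Eed-MADM and from 28.3 to 134 CPM in the 5 of control-MADM, which overlapped.

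Cdkn1b, the gene of p27, moved the other way and was called at P0 only. Its cKO-Eed-MADM libraries were at 55.0, 49.0, 30.7 and 37.1 CPM, all below the lowest of control-MADM (79.6 to 130 CPM, median 108, n = 5) and Eed-MADM (91.0 to 178 CPM, median 105, n = 9). It fell by 1.25 ± 0.22 on the log2 scale against control-MADM (adjusted p = 0.000132) and fell by 1.48 ± 0.20 against Eed-MADM (adjusted p = 1.10e-05). At E16.5 the means were 93.1 ± 18.0, 96.9 ± 42.3 and 83.9 ± 6.59 CPM in cKO-Eed-MADM, Eed-MADM and control-MADM. The difference between cKO-Eed-MADM and control-MADM itself changed from E16.5 to P0, by -1.42 ± 0.35 (interaction term, adjusted p = 0.0235), with 1.85% of all genes called in that test. For Cdkn1a, Cdkn2c and Cdkn2d the change between the 2 ages was not called (adjusted p = 0.596, 0.337 and 0.254). For Cdkn2a it could not be estimated, since the controls had no read at either age. That of Cdkn2b, also not called (adjusted p = 0.197), rests on a fitted value against controls with no read at E16.5. The corresponding test for Eed-MADM called none of the members and 0.0575% of all genes.

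**Figure D2:**
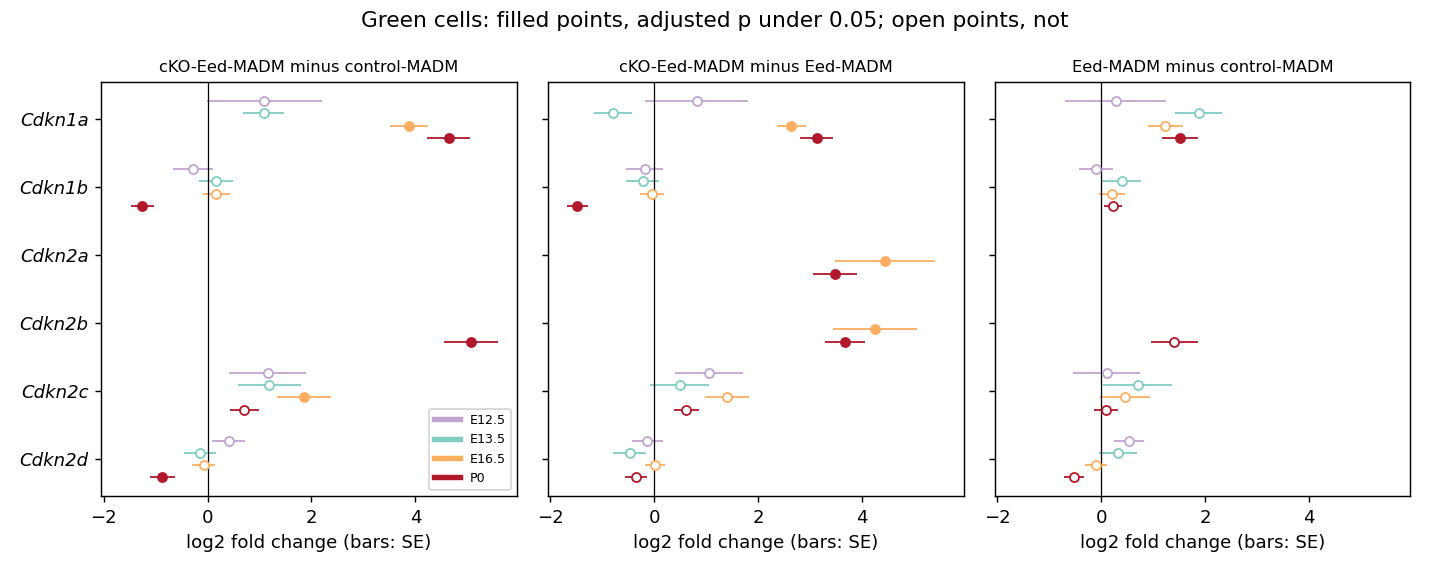
Log2 fold changes of the members in green cells (horizontal axis) with their standard errors as bars, for the 3 comparisons of genotypes and 4 ages, filled where the adjusted p was under 0.05. Comparisons in which 1 group had no read are left out. At P0 Cdkn1a and Cdkn2b lie at 4.64 and 5.07 in the comparison of cKO-Eed-MADM with control-MADM, and Cdkn1b and Cdkn2d lie at -1.25 and -0.87.

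Counted over the family in green cells, 4 of 6 members were called between cKO-Eed-MADM and control-MADM at E16.5, all of them up, where 8.58% of all genes were called in either direction. Their median log2 fold change was 2.87, also with Cdkn2a and Cdkn2b at their lower bounds, and that of all genes was 0.00103. At P0 5 of 6 were called, 3 up and 2 down, beside 24.2% of all genes, with a median of 2.67 over the members. Between cKO-Eed-MADM and Eed-MADM, 3 members were called up at E16.5 beside 7.04% of all genes, and 3 up and 1 down at P0 beside 19.5%. Between Eed-MADM and control-MADM none was called at E16.5, where 0.255% of all genes were, and 2 were called up at P0, where 1.75% were. In all 3 comparisons Cdkn2a at both ages and Cdkn2b at E16.5 reached the count limit of the shared fit only through the cKO-Eed-MADM libraries, where they are high. They are among the members counted above as called up in cKO-Eed-MADM, so that those counts depend on the group that let them be tested. At E13.5 no member was called, with 0.0372% (cKO-Eed-MADM against control-MADM), 0.0223% (against Eed-MADM) and 0% (Eed-MADM against control-MADM) of all genes called. At E12.5 no gene was called in any of the 3 comparisons (0%). These comparisons share their samples pairwise, so that their counts are not independent.

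Markers of cell types moved with the same groups, and in bulk samples fewer cells of a type and less RNA per cell cannot be told apart. At P0 the summed level of 4 markers of dividing cells was 45.8 to 68.4 CPM in cKO-Eed-MADM and 132 to 226 CPM in control-MADM, with 4 of 4 called down. Between these groups 24.2% of all genes were called at P0. Of 6 projection neuron markers 5 were called down (1213 to 2791 against 3216 to 6315 CPM), as were 3 of 3 of intermediate progenitors and 3 of 4 of interneurons, while 3 of 6 of astrocytes and oligodendrocyte precursors and 2 of 6 of radial glia were called up. The last 2 lists did not rise as a whole, and 2 of 6 is not far from the share of all genes. In them 3 and 2 markers had negative log2 fold changes, none called, and the medians were 0.37 and 0.12. Of 5 microglia markers 3 were tested and all 3 were called up, at 73.0 to 183 CPM against 5.99 to 10.7 CPM, with Ptprc at 0 to 1.94 CPM in cKO-Eed-MADM. Of 4 meningeal and fibroblast markers 3 were called up (47.8 to 125 against 3.49 to 6.11 CPM). In Eed-MADM the microglia markers summed to 1.01 to 76.2 CPM. At E16.5 the microglia markers summed to 5.89 to 32.1 CPM in cKO-Eed-MADM and 0.443 to 1.32 CPM in control-MADM. Between these groups 4 of 4 interneuron markers and 5 of 6 markers of astrocytes and oligodendrocyte precursors were called up. Of 6 projection neuron markers 3 were called down, beside 8.58% of all genes called in either direction. The part of these cell types in the differences of the members was not tested. At E13.5 the microglia markers summed to 0.621 to 8.93 CPM in cKO-Eed-MADM (n = 4) and to 2.01 to 6.20 CPM in control-MADM (n = 2). None of the 5 reached the count limit at that age, and their part was not tested there either.

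Red and yellow cells carry the genotype of the green cells in control-MADM and cKO-Eed-MADM, and gave fewer libraries. At E16.5 red cKO-Eed-MADM cells were at 13.6 and 11.6 CPM of Cdkn2a, 19.2 and 22.2 CPM of Cdkn2b and 110 and 157 CPM of Cdkn1a, while both red control-MADM libraries had no read of Cdkn2a or Cdkn2b and 4.39 and 9.02 CPM of Cdkn1a. All 3 were called up (adjusted p = 0.0307, 0.00546 and 1.81e-05), beside 3.93% of all genes. Without either control library Cdkn2a (adjusted p = 0.280 without replicate 1 and 0.195 without replicate 2) and Cdkn2b (0.103 and 0.0620) were no longer called, and Cdkn2a was also lost without cKO-Eed-MADM replicate 1 or 2 (0.0844 and 0.0814).

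At P0 red cKO-Eed-MADM cells held 38.0 and 38.7 CPM of Cdkn2a and 29.8 and 51.6 CPM of Cdkn2b, against 0 and 3.39 CPM and 0.670 and 0 CPM in red control-MADM cells. Both were called up (adjusted p = 0.0337 and 0.00227), beside 6.03% of all genes. Red control-MADM replicate 2, with 15 reads, was the one control library of any color with a Cdkn2a read, and its microglia markers summed to 120 CPM, its red blood cell markers to 1896 CPM and its meningeal and fibroblast markers to 125 CPM, against 45.8, 393 and 37.5 CPM in replicate 1. Their part in these reads was not tested. The log2 fold change of Cdkn2a was 4.46 ± 1.21. Without control replicate 2 it was 10.58, a fitted value against a control with no read, and without replicate 1 it was 3.43 (adjusted p = 0.160). That of Cdkn2b, 6.81 ± 1.24, became 5.88 (adjusted p = 0.0425) without replicate 2 and 10.66 without replicate 1, again against no read. Without cKO-Eed-MADM replicate 1, which stood apart, the log2 fold change of Cdkn2a was 4.49. Without both libraries of P0 that stood apart, those of Cdkn1a and Cdkn2d were 3.45 and -1.56. Either fit leaves 1 red cKO-Eed-MADM library, so that no count of members called is given for it. With the replicate number as a block Cdkn2a was not called (adjusted p = 0.133). Cdkn1a was at 80.7 and 371 CPM in red cKO-Eed-MADM cells and at 22.3 and 44.8 CPM in red control-MADM cells and was not called (log2 fold change 2.75 ± 0.85, adjusted p = 0.0512). Its difference was 3.47 (adjusted p = 0.0253) without cKO-Eed-MADM replicate 1 and 1.23 (0.278) without replicate 2. Cdkn1b was at 5.01 and 54.5 CPM in red cKO-Eed-MADM cells and at 91.4 and 106 CPM in red control-MADM cells (log2 fold change -1.73, adjusted p = 0.0517). The lowest value was in the library that stood apart, without which the difference was -0.85 (adjusted p = 0.258).

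Yellow cells gave 1 cKO-Eed-MADM library at P0, with 15.6 CPM of Cdkn2a, 26.7 CPM of Cdkn2b and 377 CPM of Cdkn1a, against 0, at most 0.790 and at most 14.0 CPM in the 2 control-MADM libraries. A single library has no spread of its own, so these levels have no replicate check. On the assumption that it varies like the other groups, the fit put all 3 past the threshold (adjusted p = 0.0103, 0.00802 and 0.00265), as it did 5.45% of all genes. Without control-MADM replicate 2, which stood apart and held no Cdkn1a read, Cdkn2a and Cdkn2b had adjusted p = 0.0727 and 0.0700 and the log2 fold change of Cdkn1a was 4.78 in place of 5.69. Without replicate 1, which leaves a control with no read of either, the fitted values of Cdkn1a and Cdkn2b were 13.90 and 10.08 in place of 5.69 and 5.91. With the replicate number as a block Cdkn2a was not called (adjusted p = 0.0998). At E13.5 yellow cKO-Eed-MADM cells held 0 and 0.795 CPM of Cdkn2a but 5.80 and 6.56 CPM of Cdkn2b, and red ones 4.76 and 4.17 CPM of Cdkn2a and 2.97 and 6.41 CPM of Cdkn2b. Cdkn1a was lower in yellow cKO-Eed-MADM cells of E13.5, at 38.0 and 79.3 CPM, than in the 1 yellow control-MADM library, at 236 CPM. The single yellow cKO-Eed-MADM library of E12.5 held 8 reads of Cdkn2b (4.31 CPM) and none of Cdkn2a, where the 4 yellow control-MADM libraries held none of either. None of the members was called between cKO-Eed-MADM and control-MADM in yellow cells at E12.5 and E13.5 or in red cells at E13.5, where 0%, 0.0971% and 0.276% of all genes were called.

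Yellow Eed+/- and red Eed+/+ cells of Eed-MADM share the heterozygous tissue with the green Eed-/- cells. None of their libraries used here held a Cdkn2a read. For yellow cells 0.00555%, 0% and 2.07% of all genes were called against control-MADM at E12.5, E13.5 and P0, and for red cells 0%, 0% and 0.00706% at E13.5, E16.5 and P0, and no member was called in any of these. At P0 red cells of Eed-MADM were at 1.24 and 1.40 CPM of Cdkn2b and 26.8 and 25.4 CPM of Cdkn1a, and yellow cells at 0 and 0 CPM and at 11.6 and 42.9 CPM.

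Inside the mosaic, green cells of P0 thus held Cdkn2a in 9 of 9 libraries while both red and both yellow libraries were at 0. The test across genes did not call this difference (adjusted p = 0.364 against red and 0.112 against yellow cells), nor that of Cdkn2b against yellow cells (adjusted p = 0.0633), and DESeq2 called all 3 (0.0351, 0.0110 and 0.00393). Without the libraries that stood apart, the adjusted p of Cdkn2a and Cdkn2b against yellow cells was 0.0296 and 0.00615. At E16.5 Cdkn1a was at 5.90 CPM in the 1 red library and at 24.8 to 33.8 CPM in the 5 green ones (log2 fold change 2.34 ± 0.59, adjusted p = 0.439), a comparison whose red arm takes its spread from the other groups. At P0 its difference was 1.44 ± 0.70 (adjusted p = 1). No member was called between colors of the mosaic at any age. The shares of all genes called were 0.0111%, 0.0897%, 0.0602% and 0.0988% for green against red cells in order of age and 0.183%, 0% and 0.127% for green against yellow cells at E12.5, E13.5 and P0. Green and red cells also differ in the parental origin of their chromosome 7, which holds none of the members, and whether the colors of a genotype came from the same pools is not given.

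**Figure D3:**
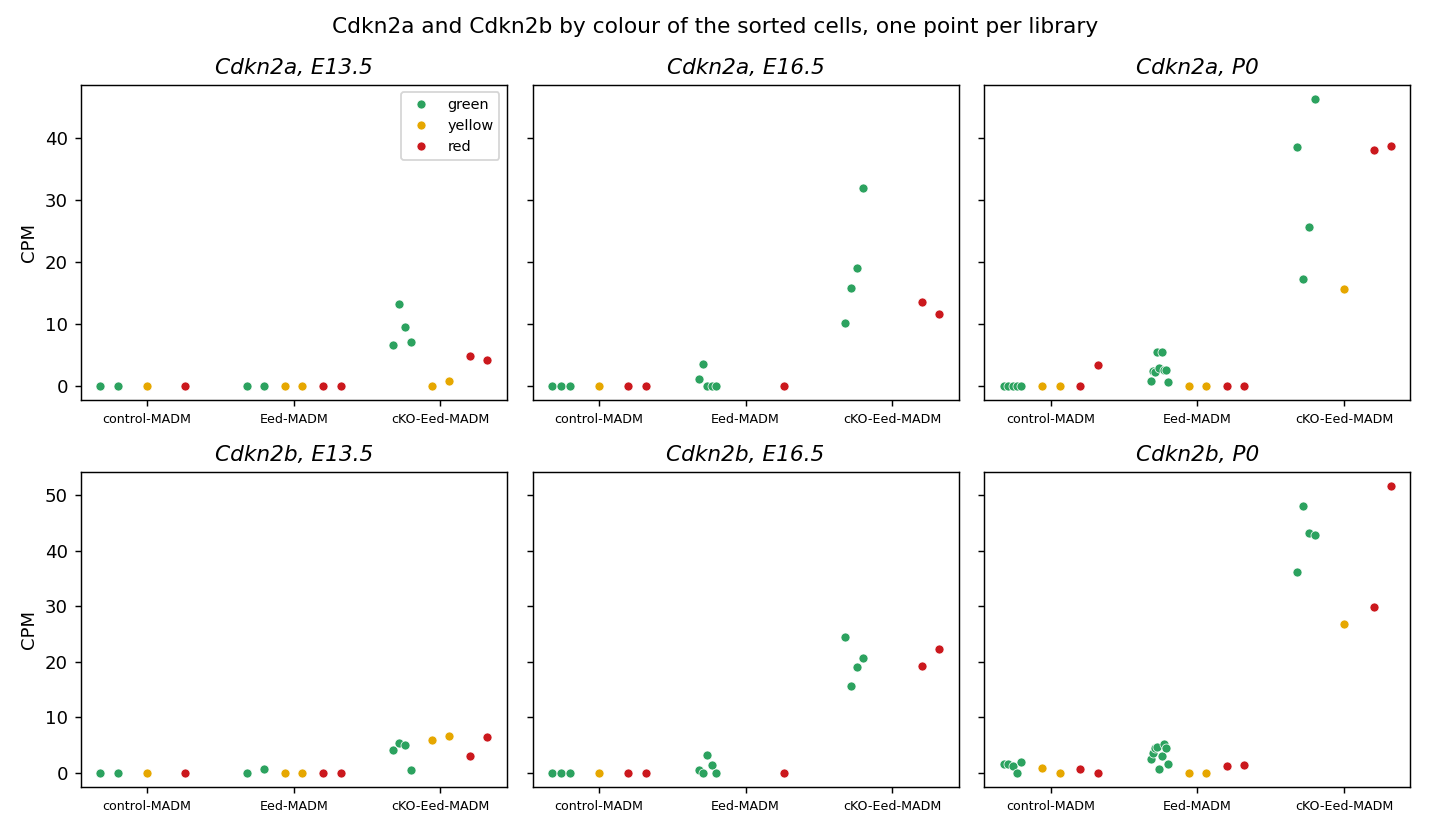
CPM of Cdkn2a (top) and Cdkn2b (bottom) at E13.5, E16.5 and P0, with 1 point for each library, colored by the sorted cells. In Eed-MADM at P0 the green libraries hold 0.585 to 5.45 CPM of Cdkn2a and the red and yellow ones none, while all colors of cKO-Eed-MADM hold both genes from 15.6 CPM upward.

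In control green cells, 1 member was called between ages, and Cdkn2a and Cdkn2b were too low to be tested. Cdkn1a fell by 1.495 ± 0.46 on the log2 scale from E13.5 to E16.5 (34.6 ± 3.63 CPM, n = 2, to 12.5 ± 2.91 CPM, n = 3, adjusted p = 0.0488), beside 12.8% of all genes called. The call was lost with the replicate number as a block (adjusted p = 0.0768), without E13.5 replicate 1 (0.186) and without E16.5 replicate 1, 2 or 3 (0.0872, 0.105 and 0.140). From E16.5 to P0 and from E13.5 to P0, with 11% and 22.9% of all genes called, no member was. Cdkn2c came closest, with 9.03 ± 3.30 CPM at E16.5 and 27.3 ± 11.9 at P0 (1.62 ± 0.50, adjusted p = 0.0518), and passed with DESeq2 (adjusted p = 0.00886) and without the filter on low counts (0.00237). From E13.5 to P0 its change was 0.97 (adjusted p = 0.229), 2.35 without E13.5 replicate 1 (22.3 CPM, adjusted p = 0.0359) and 0.26 without replicate 3 (5.27 CPM, adjusted p = 0.761), the only 2 control libraries of that age.

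Of 15 genes of the G1/S machinery, all tested, 1 was called up and 2 down between cKO-Eed-MADM and control-MADM at E16.5 (median log2 fold change -0.34), where 8.58% of all genes were called, and 2 up and 2 down at P0 (median -0.09, against -0.0078 for all genes), where 24.2% were. Ccnd1, a D-type cyclin that INK4 proteins displace from its kinases, rose at both ages, from 15.4 ± 6.25 (n = 3) to 76.6 ± 36.5 CPM (n = 4, adjusted p = 0.000759) at E16.5 and from 75.7 ± 16.6 (n = 5) to 311 ± 90.2 CPM (n = 4, adjusted p = 1.73e-06) at P0. Cdk4, the kinase itself, fell by 0.56 and by 0.79 on the log2 scale (adjusted p = 0.00299 and 6.29e-05). At P0 Ccna2, the cyclin of S phase, fell by 1.57 (adjusted p = 0.000292).

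Of 13 p53 targets other than Cdkn1a, 12 were tested, and 4 were called up at E16.5 (median log2 fold change 0.51) and 10 at P0 (median 1.65), with none down, beside the same 8.58% and 24.2% of all genes. Phlda3, an inhibitor of AKT, rose from 11.8 ± 1.51 to 88.7 ± 25.7 CPM at E16.5 (adjusted p = 1.46e-05) and from 20.8 ± 9.59 to 280 ± 94.7 CPM at P0 (adjusted p = 1.04e-08). Sesn2, a stress-induced regulator of mTORC1, rose from 7.68 ± 1.74 to 34.8 ± 13.54 CPM (adjusted p = 0.00106) and from 11.3 ± 4.14 to 101 ± 27.9 CPM (adjusted p = 1.10e-07). Eda2r, a receptor of the TNF family, was 13.9-fold higher at P0 (adjusted p = 1.72e-06). In Eed-MADM against control-MADM 1 of the 12 was called up at E16.5 and none at P0 (median 0.32), beside 0.255% and 1.75% of all genes.

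**Figure D4:**
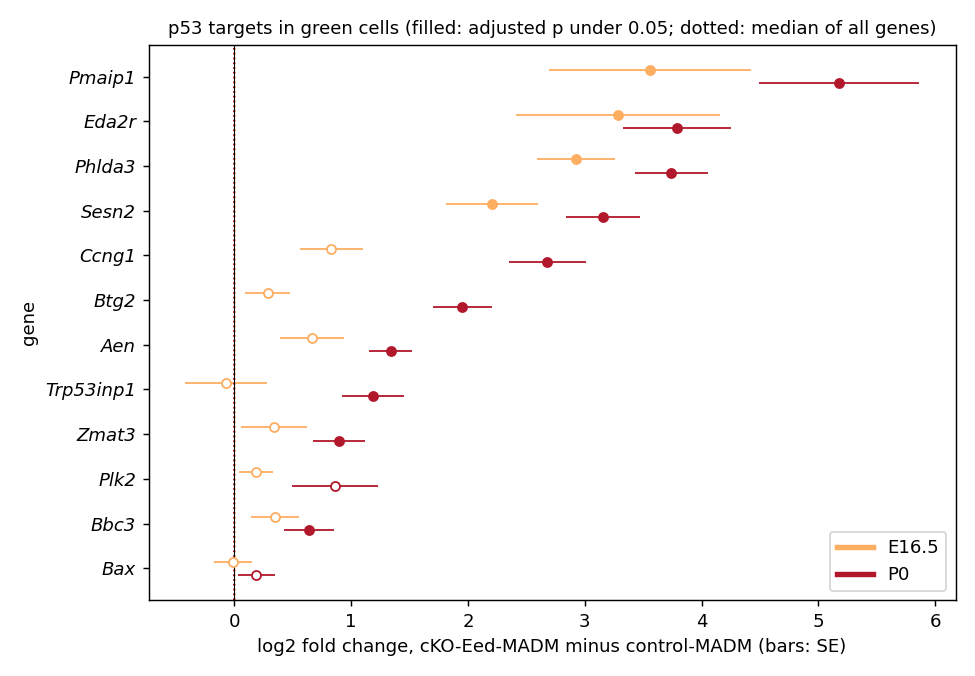
Log2 fold change between cKO-Eed-MADM and control-MADM in green cells (horizontal axis, standard errors as bars) for the 12 p53 targets tested, at E16.5 and P0. All 12 points of P0 lie right of 0, from Bax at 0.19 to Pmaip1 at 5.17, and 10 of them are filled (adjusted p under 0.05).

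Of 16 regulators of the inhibitors, 15 were tested at E16.5 and P0. Between cKO-Eed-MADM and control-MADM 2 were called up and none down at E16.5 (median log2 fold change 0.05), and 2 up and 5 down at P0 (median -0.12), again beside 8.58% and 24.2% of all genes. Tgfb2, a ligand of the pathway that induces Cdkn2b, was 3.65-fold higher at E16.5 and 2.89-fold higher at P0 (adjusted p = 0.0152 and 0.000100). Bmi1, the PRC1 subunit best known as a repressor of the Cdkn2a locus, was 2.12-fold higher at E16.5 (adjusted p = 0.00283). Ezh2, the methyltransferase subunit of PRC2, fell by 0.89 at P0 (adjusted p = 0.000139), as did Kdm6b, a demethylase of the same mark, which fell by 0.83 (adjusted p = 0.000383).

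The genes whose log2(CPM + 1) was most correlated with each member over the 55 green libraries are given as a description, since libraries share ages, genotypes and depth. Among 16125 genes with a mean of at least 1 CPM, those nearest to Cdkn2a were Hoxd9 (Pearson's r = 0.940), Hoxc4 (0.931) and Hoxc9 (0.928), and those nearest to Cdkn2b were Hoxc8 (0.920), Hoxa7 (0.898) and Hoxb5 (0.895), all of them homeobox genes of the Hox clusters. Cdkn2a and Cdkn2b had r = 0.876 with each other. Nearest to Cdkn1a were Phlda3 (0.726), Sesn2 (0.713) and Syt13 (0.684), and its r with Cdkn2a was 0.563. Nearest to Cdkn1b were Zbtb18 (0.674), Neurod2 (0.670) and Srrm4 (0.659), the first 2 being transcription factor genes of cortical projection neurons. For Cdkn2c they were Clptm1, Tmem246 and Fgf13 (0.727, 0.721 and 0.711), and for Cdkn2d Tagln3, Wbp1 and Trappc4 (0.716, 0.706 and 0.703).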

How the data were processed

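Green, yellow and red cells sorted from MADM cortices were sequenced in bulk with Smart-Seq2. For each of 116 libraries the authors deposited STAR's counts per gene, without normalization. Reads were aligned to mm10 (GRCm38) and those with more than 1 place were dropped, so that near-identical genes are undercounted. The unstranded column was used. The annotation release was not given in the sources used here, and 53274 of 53379 gene identifiers matched GENCODE M21 once versions were removed.

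Libraries were grouped by their labels. Reads on no single gene (13.4% to 40.4% of the unique reads in the 92 libraries used) were kept out. Counts were TMM-normalized and tested in edgeR 4.0.16 under R 4.3.3 (quasi-likelihood, robust), and p-values were adjusted by Benjamini-Hochberg over every gene whose mean count exceeded 1 at E12.5 or 10 later, at a threshold of 0.05. Green cells of the 3 genotypes of an age were fitted together, all colors of an age together, control ages together, and E16.5 with P0 for the interaction. Members below the count limit were compared by a 2-sided exact permutation test of mean CPM. Folds against groups at 0 used 3 counts over the group, which cover counting error only. CPM is on one TMM scale over all libraries used. The scripts were tested on simulated data with 200 changed genes.

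The members and lists were chosen with earlier results of these data known. Named are the 6 members, the 3 genes most correlated with each, the genes near Cdkn2a, Eed and up to 3 called genes of each list by lowest adjusted p, with the members themselves named in every comparison. Alternatives were DESeq2 1.42.0, edgeR with the size factors of DESeq2, filterByExpr, no filter on low counts, a threshold of 0.1, all libraries, only the 2 groups compared, the counts of one strand, thinning, the replicate number as a block and leaving out single libraries of groups of 2 to 5. Leaving out the 3 libraries that stand apart was chosen after seeing the data.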

Additional observations from a re-analysis of the deposited data

Results flagged for a closer look

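Among 60 sets of 4 to 10 libraries, each 1 member in 1 group, 7 held a library farther from the others than Dixon's 95% limit, where chance gives about 1 in 20. That rate does not hold for 3 of the 7, in which every other library was at 0, so that any read stood out. At E12.5 these were cKO-Eed-MADM green replicate 5 for Cdkn1a (0 CPM) and for Cdkn2a (1 read, 0.626 CPM), and, with all others at 0 as for Cdkn2a above, 1 or 2 reads in Eed-MADM green replicate 8 for Cdkn2a (0.566 CPM) and replicate 5 for Cdkn2b (0.835 CPM). At E16.5 Eed-MADM green replicate 1 was high for Cdkn1b (170 CPM). At P0 Cdkn2c was low in cKO-Eed-MADM green replicate 3 (29.7 CPM) and high in control-MADM green replicate 5 (47.8 CPM), the 2 libraries without either of which the difference of Cdkn2c passed the threshold.

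The difference of Cdkn1b between cKO-Eed-MADM and control-MADM changed from E16.5 to P0 by -1.42 on the log2 scale, by the interaction test.

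Libraries under the read limits took no part in the comparisons. One of them, cKO-Eed-MADM yellow replicate 1 at P0, with 55.9% uniquely aligned reads, held 110 reads of Cdkn2a (23.2 CPM without TMM scaling) and 0 of Cdkn2b, where both yellow control-MADM libraries held no Cdkn2a read. Eed-MADM yellow replicate 3 at E12.5 held 3 reads of Cdkn2a among 15225 reads on genes. Eed-MADM green replicate 3 at E13.5 held 7 reads of Cdkn2b among 59471 reads on genes.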

How the results depend on the processing

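No call of a member reversed. Of 1874 fold changes of members recomputed under the alternatives, 1788 stayed on their side of the threshold, 32 were lost and 54 gained, the cause of which was not tested. Of all recomputed, 97 did not keep their sign, none of them called in either fit (adjusted p of at least 0.326 before and 0.426 after). In green cells of E16.5 and P0, every call of Cdkn1a, Cdkn2a and Cdkn2b in cKO-Eed-MADM held in each setting run, except that of Cdkn2a against Eed-MADM at E16.5 under DESeq2 (adjusted p = 0.0824), and so did those of Cdkn1b and Cdkn2d at P0.

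The number of members called moved in 46 of 392 recomputations, and those named here are only a part of them. The number of all genes called moved as well. In green Eed-MADM against control-MADM it ran from 2 to 272 over the alternatives at E16.5 and from 101 to 608 at P0. It moved further in red and yellow cKO-Eed-MADM at P0. The counts of members below are given without the share of all genes in each setting, so they do not describe the family alone. DESeq2 added Cdkn2b to the members called in green Eed-MADM against control-MADM at P0 (adjusted p = 0.0259). DESeq2 called 1 in place of 0 in green cells of E13.5 in all 3 comparisons, in green Eed-MADM against control-MADM at E16.5, in green against red mosaic cells at E16.5 and P0, in yellow Eed-MADM against control-MADM at P0 and in control cells from E16.5 to P0, 2 in place of 0 in green against yellow cells at P0, and 4 in place of 2 (red) and 5 in place of 3 (yellow) in cKO-Eed-MADM at P0. Without the filter on low counts it was 1 in the same green comparisons of E13.5 (also in yellow cKO-Eed-MADM), in green against red cells at E16.5 and in control cells from E16.5 to P0, 3 in green Eed-MADM at E16.5 and 1 in place of 2 at P0. The member that moved in yellow cKO-Eed-MADM was Cdkn1a, which was lower there than in the 1 control-MADM library (log2 fold change -2.03). In green cells of E13.5 the member gained in these 2 settings was Cdkn2a in both comparisons of cKO-Eed-MADM. Between Eed-MADM and control-MADM it was Cdkn1a. With all libraries the number called was 1 in both cKO-Eed-MADM comparisons of E13.5, in green against red cells at E16.5 and in red cKO-Eed-MADM at P0, and 0 in control cells from E13.5 to E16.5. With only the groups compared it was 1 in cKO-Eed-MADM at E13.5, as with a threshold of 0.1, and 1 in Eed-MADM at P0, as after thinning. The threshold of 0.1 also took in Cdkn2c in green cKO-Eed-MADM against Eed-MADM at E16.5 (adjusted p = 0.0520). At P0 it took in Cdkn2c against control-MADM (0.0628) and against Eed-MADM (0.0768), among others. Leaving out the libraries that stand apart gave 2 in green against yellow cells. In red and yellow cKO-Eed-MADM against control-MADM it left 1 library in a group, so that no count is given.

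Leaving out single libraries gave 1 to 2 members in place of 3 in red cKO-Eed-MADM at E16.5, 1 to 3 at P0, 2 to 4 in yellow cKO-Eed-MADM at P0, 1 to 2 in green and 0 to 2 in yellow Eed-MADM at P0, and 0 to 1 in control cells from E13.5 to the later ages. The deviations of same-numbered green libraries of an age had r from -0.25 to 0.43. This cannot show whether they were paired, and the labels do not say. The replicate block gave 1 in red cKO-Eed-MADM and green Eed-MADM at P0 and 0 in control cells from E13.5 to E16.5. At E12.5 Cdkn2a and Cdkn2b, with at most 4 reads in a green group, were below the count limit of the test.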
